A study of Homo sapiens with 12 samples.

Results

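The ERK pathway output and feedback genes described here are 10 genes that extracellular signal-regulated kinase (ERK) signalling is known to switch on: the phosphatases DUSP4, DUSP5 and DUSP6, the Sprouty genes SPRY1, SPRY2 and SPRY4, the Spred genes SPRED1 and SPRED2, and the PEA3 transcription factors ETV4 and ETV5. They were chosen by gene symbol, with earlier results of these data known. All 10 had 1 row in the deposited table of 31585 distinct loci, and all 10 were among the 15055 loci tested. Their transcripts were compared in A375, an established BRAF-mutant human melanoma cell line that also carries GFP, after stable retroviral transduction. The 4 groups of 3 libraries were Control (the empty vector MSCV-IRES-Hygro), YAPS127A, YAPS127A,S94A (labelled YAP-S94A,S127A) and YAP2SA (labelled YAP-S127A,S381A in the titles, while the condition field of these 3 libraries also lists S94A, so the titles were followed). YAP is the transcriptional co-activator of the Hippo pathway. The S127A and S381A substitutions remove sites at which the LATS kinases inhibit YAP, and S94A removes the serine needed to bind TEAD transcription factors. All groups, Control included, were hygromycin-selected, grown on plastic in serum and untreated with drug. The series design describes 3 replicates plated from each stably transduced line and names no separate transductions, so p-values may measure only the spread between platings. The study gives differing culture times before lysis.

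ERK is the last kinase of the RAS, RAF, MEK and ERK cascade, and a mutant BRAF keeps that cascade active without a growth factor signal. Active ERK induces a set of genes that damp the same pathway. DUSP proteins remove the phosphates that activate ERK and related kinases, Sprouty proteins act between receptor tyrosine kinases and RAF, and Spred proteins bring the RAS inactivator neurofibromin to the membrane, while PEA3 factors carry the signal on to other genes. In BRAF-mutant melanoma these transcripts are widely read as a gauge of pathway output. The values used here are of RNA only, and no phosphorylated ERK values were analysed here.

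Values are FPKM, a level scaled to transcript length and to library size, with the mean ± SD of 3 libraries. Fold changes are differences of log2(FPKM + 1), with p-values from limma adjusted by Benjamini-Hochberg over all loci tested. A gene was called at an adjusted p under 0.05, and the ratio of mean FPKM is given without the added 1. Summed FPKM per library ranged from 790865 to 901558, with 20161 to 20656 loci above 0, and the sequencing depth is unknown. The transgene reads as YAP1. Control replicates 1 and 2 held 34.1 and 33.0 FPKM of YAP1, and the library labelled Control replicate 3 held 172 FPKM, inside the range of 130 to 187 FPKM in the 9 libraries of the YAP mutants. Each comparison with Control is therefore given with and without that library, which is in the fit unless said otherwise. Of 9 melanocyte and melanoma markers 5 had a median of at least 1 FPKM. SOX10, which defines the lineage, averaged 263 FPKM in Control, 224 in YAPS127A, 272 in YAPS127A,S94A and 6.16 in YAP2SA, and S100B averaged 46.9, 33.8, 44.4 and 0.807 FPKM. MITF averaged 8.59 FPKM in Control and 35.0 FPKM in YAP2SA, while the pigment genes PMEL, MLANA, TYR and DCT were under 1 FPKM in all libraries. VIM averaged 744 FPKM in Control and 592 in YAP2SA, and S100A4, in a row shared with S100A5, 326 and 259. The summed fibroblast markers ran from 3.81 to 6.05 FPKM in Control, 13.4 to 14.9 in YAPS127A, 4.43 to 5.61 in YAPS127A,S94A and 42.8 to 50.2 in YAP2SA, of which COL1A1 averaged 33.4, and DCN and COL1A2 were under 1 in all libraries. Among the keratinocyte markers, KRT14 averaged 6.87 FPKM in Control and 0.434 in YAP2SA, and KRT5 0.0282 and 1.56. KRT1 and CDH1 were under 1 FPKM in all libraries. Of 3 endothelial markers none had a median of 1 FPKM. The leukocyte genes PTPRC and CD3E were at most 0.0644 FPKM, and LYZ averaged 15.9 FPKM in Control and 2.51 in YAP2SA. The part of these shifts in the results below was not tested, and in bulk RNA fewer cells of a type and less RNA per cell cannot be told apart.

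The promoters of the Sprouty genes are shown because SPRY4 and SPRY2 moved most of the 10 genes, and SPRY1, of the same family, much less. Each is the stretch of 250 bases before a RefSeq transcription start on GRCh38.p14, at chr5:142324248-142324497 (minus strand) for SPRY4, chr13:80341127-80341376 (minus) for the most upstream of 3 SPRY2 starts, and chr4:123398136-123398385 (plus) for 1 of 2 SPRY1 starts. Capitals mark the ETS motif CCGGAAG.
SPRY4: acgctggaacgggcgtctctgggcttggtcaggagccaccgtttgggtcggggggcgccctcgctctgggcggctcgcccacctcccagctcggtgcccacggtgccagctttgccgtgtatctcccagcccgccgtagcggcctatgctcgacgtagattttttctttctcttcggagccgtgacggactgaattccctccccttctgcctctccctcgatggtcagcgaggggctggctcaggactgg
SPRY2: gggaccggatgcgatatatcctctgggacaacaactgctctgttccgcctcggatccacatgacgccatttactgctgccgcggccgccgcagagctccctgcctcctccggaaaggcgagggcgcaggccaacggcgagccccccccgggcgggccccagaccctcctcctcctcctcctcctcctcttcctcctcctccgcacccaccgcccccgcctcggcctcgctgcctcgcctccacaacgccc
SPRY1: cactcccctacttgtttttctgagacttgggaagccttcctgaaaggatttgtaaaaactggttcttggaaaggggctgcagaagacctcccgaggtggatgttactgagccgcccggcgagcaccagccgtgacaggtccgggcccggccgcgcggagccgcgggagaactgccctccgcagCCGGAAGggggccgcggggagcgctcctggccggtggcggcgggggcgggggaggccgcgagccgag
RefSeq windows matched 6 of the 10 genes, with 10 windows in all (DUSP6, SPRED1 and SPRY4 with 1 each, SPRED2 and SPRY1 with 2 each, SPRY2 with 3). On either strand, the TEAD motif GGAATG was found in 0 of these 10 windows and in 11.9% of the 35116 windows of the same length over all genes. The AP-1 motif TGANTCA was likewise in 0 of 10 and in 6.57% of all windows, and the cyclic AMP response element TGACGTCA in 0 of 10 and in 1.65%. The ETS motif CCGGAAG was in 1 of 10 windows, the SPRY1 one above, and in 8.52% of all. Shorter forms of the ETS motif were not counted. With 1 match in all, no motifs overlapped, and a match is a description of the sequence only.

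On the GRCh37 assembly, which is the hg19 build the authors used, SPRY4 lies at chr5:141689992-141706020 (minus strand), SPRY2 at chr13:80910111-80915261 (minus), SPRY1 at chr4:124317950-124324915 (plus), SPRED1 at chr15:38545037-38649450 (plus) and SPRED2 at chr2:65537985-65659771 (minus). DUSP6 lies at chr12:89741012-89746278 (minus), DUSP5 at chr10:112257665-112271291 (plus), DUSP4 at chr8:29190581-29208201 (minus), ETV4 at chr17:41605212-41656988 (minus) and ETV5 at chr3:185764103-185828107 (minus). All 10 are annotated as protein coding by GENCODE. Exons of DUSP6 and ETV4 overlap an annotated gene on the opposite strand (a long noncoding RNA and DHX8), and exons of ETV5 overlap DGKG on the same strand. Whether reads were assigned by strand is not given in the sources used here, so a share of these 3 values could come from the neighbour.

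In Control, the mean levels of the 10 genes spanned 6.92 to 152 FPKM, a scale per length that lets genes be compared. ETV4 was highest at 152 ± 13.4 FPKM, and its libraries overlapped those of SPRY2 at 147 ± 8.33. SPRY4 followed at 106 ± 12.9 FPKM, overlapping DUSP6 at 78.6 ± 13.8. DUSP4 at 53.5 ± 4.56 FPKM stood apart from its neighbours. ETV5 at 27.6 ± 4.67 and SPRED1 at 22.5 ± 2.45 overlapped, SPRED2 at 18.7 ± 1.22 did not overlap either neighbour, and DUSP5 at 7.28 ± 1.88 and SPRY1 at 6.92 ± 1.70 were lowest and overlapped. The order in YAPS127A was the same as in Control. In YAPS127A,S94A, the 2 overlapping pairs ETV4 with SPRY2 and DUSP5 with SPRY1 changed places. In YAP2SA, ETV4 stayed highest, DUSP4 came next and SPRY4 dropped from rank 3 to rank 9. SPRY2 and DUSP5, ranks 4 and 5 there, were the only neighbours in YAP2SA whose libraries overlapped.

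**Figure D1:**
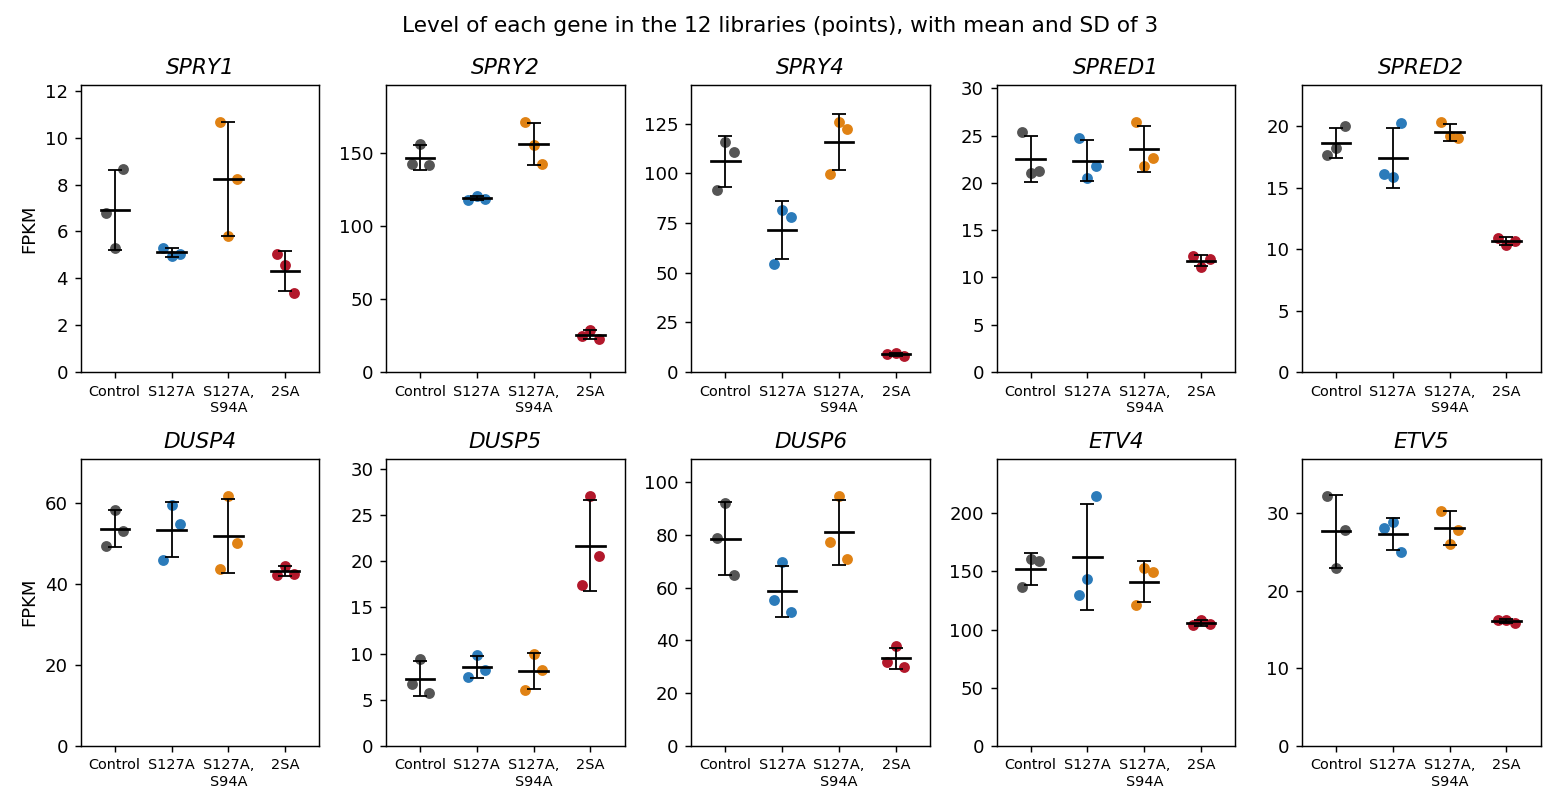
FPKM of each of the 10 genes (1 panel each, linear axis from 0) in Control, YAPS127A, YAPS127A,S94A and YAP2SA, with points for the 3 libraries and the mean with SD. SPRY4 and SPRY2 in YAP2SA lie near 8.85 and 25.5 FPKM, under all libraries of the other groups, and DUSP5 in YAP2SA lies above them.

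The comparison of YAP2SA with Control asked how the output and feedback genes differed in cells given a YAP with the S127A and S381A substitutions. In YAP2SA, 8 of the 10 genes fell, 1 rose (DUSP5) and 1 was not called (DUSP4). Over all loci tested, 19.5% were called lower and 22.9% higher. With a ratio of mean FPKM over 2 also required, 3 genes were lower and 1 higher, against 7.86% and 7.59% of all loci. Libraries did not overlap for 9 genes lower in YAP2SA and 1 higher, where 24.8% and 28% of all loci did the same. The median log2 fold change was -0.74 over the 10 genes and 0.01 over all loci tested.

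The Sprouty genes held the furthest shifts. SPRY4, whose protein restrains signalling between receptor and RAF, was at 91.3, 116 and 111 FPKM in Control and at 9.09, 9.55 and 7.92 in YAP2SA. Every YAP2SA library lay far below every Control library. SPRY4 fell by 3.44 on the log2 scale (SE 0.16, 95% interval -3.78 to -3.09, limma adjusted p = 3.07e-08), a mean 12-fold lower, and took rank 82 from the lowest of the 15055 loci by log2 fold change. SPRY2, a receptor-level inhibitor of the same family, was at 142, 156 and 142 FPKM in Control and at 24.8, 29.0 and 22.9 in YAP2SA, with no overlap. It fell by 2.48 (SE 0.09, interval -2.68 to -2.29, adjusted p = 5.22e-09), a mean 5.75-fold lower and rank 180 from the lowest. SPRY1, the least abundant Sprouty gene in these cells, was at 6.79, 5.30 and 8.69 FPKM in Control and at 5.05, 4.55 and 3.37 in YAP2SA. The groups were separate by a narrow margin, between 5.30 and 5.05 FPKM. SPRY1 fell by 0.57 (SE 0.21, interval -1.02 to -0.11, adjusted p = 0.0488), the smallest margin of any call here. That call was lost under 6 other settings, with adjusted p from 0.0508 to 0.072, and without any of 8 single libraries (Control 1 or 3, YAPS127A 1, 2 or 3, YAPS127A,S94A 3, YAP2SA 2 or 3), with adjusted p from 0.0624 to 0.172.

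Both Spred genes fell less far. SPRED1, the form lost in Legius syndrome, was at 25.4, 21.0 and 21.2 FPKM in Control and at 12.3, 11.1 and 12 in YAP2SA. SPRED2, its close relative, was at 17.7, 18.2 and 20.0 FPKM in Control and at 10.9, 10.3 and 10.7 in YAP2SA. For both genes all YAP2SA libraries lay below all Control libraries. SPRED1 fell by 0.88 (SE 0.10, interval -1.09 to -0.66, adjusted p = 3.79e-05), a mean 1.91-fold lower. SPRED2 fell by 0.75 (SE 0.09, interval -0.95 to -0.56, adjusted p = 4.49e-05), a mean 1.75-fold lower.

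The phosphatases moved in different directions. DUSP6, the cytoplasmic phosphatase specific for ERK, was at 78.8, 92.3 and 64.8 FPKM in Control and at 31.9, 37.8 and 30.1 in YAP2SA. It fell by 1.21 (SE 0.16, interval -1.56 to -0.85, adjusted p = 0.000131), a mean 2.36-fold lower, with no overlap. DUSP5, the nuclear counterpart that also acts on ERK, was at 6.75, 9.37 and 5.72 FPKM in Control and at 17.4, 27.1 and 20.6 in YAP2SA. All 3 YAP2SA libraries were above every Control library. DUSP5 rose by 1.46 (SE 0.21, interval 0.98 to 1.93, adjusted p = 0.000259), a mean 2.98-fold higher, and took rank 592 from the highest of 15055. DUSP4, a nuclear phosphatase of ERK and of stress-activated kinases, was at 49.2, 58.3 and 53.1 FPKM in Control and at 42.2, 44.4 and 42.4 in YAP2SA. The libraries did not overlap, but the difference of -0.31 (SE 0.12, interval -0.58 to -0.03) was not called (adjusted p = 0.0725). DUSP4 passed the threshold under median-ratio scaling (0.0413), quantile normalization (0.0195) and a fit of the 6 libraries alone (0.0178), and without YAPS127A,S94A replicate 1 (0.0465) or replicate 2 (0.0345).

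The PEA3 factors also fell. ETV4, the more abundant of the pair, was at 137, 161 and 159 FPKM in Control and at 103, 108 and 105 in YAP2SA. It fell by 0.52 (SE 0.16, interval -0.88 to -0.15, adjusted p = 0.0271), a mean 1.44-fold lower. The call for ETV4 was lost when Control replicate 2 (0.0776) or 3 (0.0769) or YAP2SA replicate 1 (0.0683), 2 (0.0542) or 3 (0.0655) was left out. ETV5 was at 32.2, 22.9 and 27.9 FPKM in Control and at 16.2, 16.2 and 15.9 in YAP2SA, with less spread in YAP2SA than in Control. It fell by 0.73 (SE 0.11, interval -0.97 to -0.49, adjusted p = 0.000288), a mean 1.72-fold lower. Without the library labelled Control replicate 3, 6 genes were called lower and 1 higher, beside 17.2% and 19.8% of all loci. SPRY1 (log2 fold change -0.41, adjusted p = 0.172) and ETV4 (-0.49, adjusted p = 0.0769) were the calls lost. SPRY4 (-3.40, adjusted p = 5.09e-07), SPRY2 (-2.51, adjusted p = 8.84e-08), DUSP6 (-1.34, adjusted p = 0.000147) and DUSP5 (1.32, adjusted p = 0.00146) stayed called, as did SPRED1 (adjusted p = 0.000161), SPRED2 (0.000302) and ETV5 (0.00164).

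**Figure D2:**
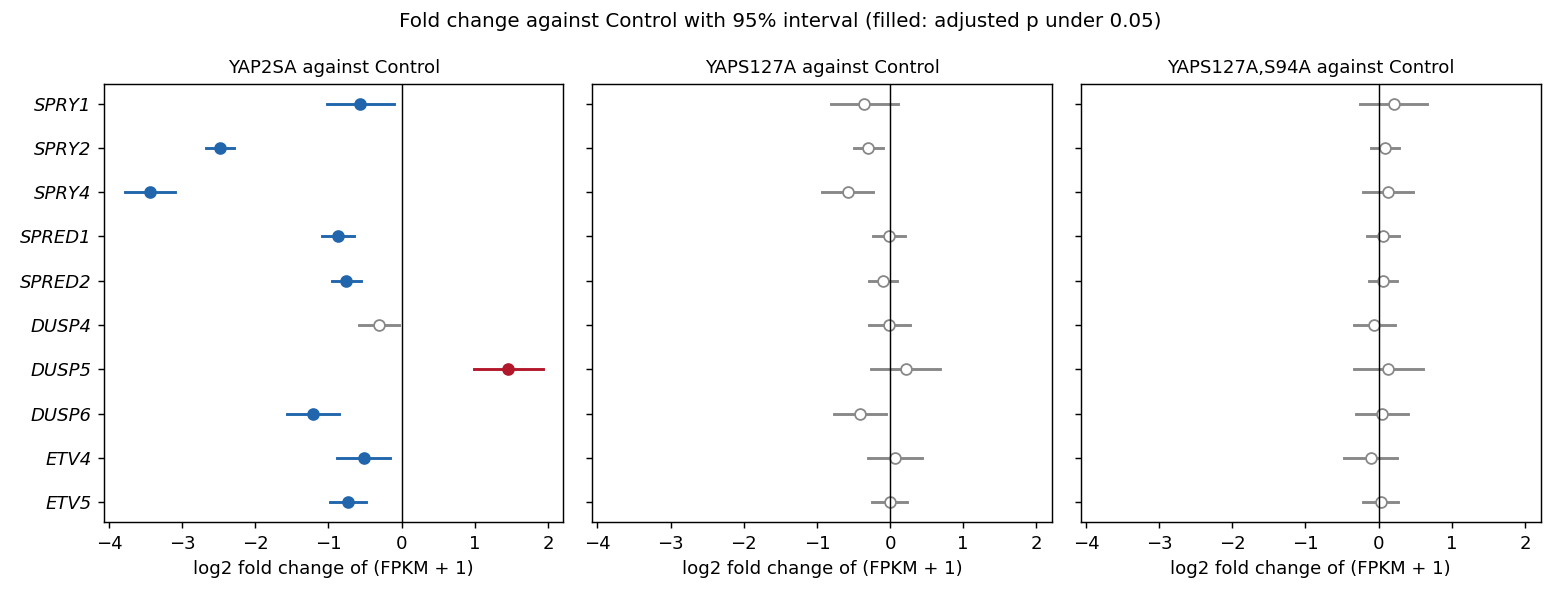
Log2 fold change of (FPKM + 1) with its 95% interval for the 10 genes in each YAP mutant against Control, filled where the adjusted p is under 0.05. In YAP2SA the intervals of SPRY4 (-3.78 to -3.09) and SPRY2 (-2.68 to -2.29) lie furthest left and that of DUSP5 (0.98 to 1.93) lies right of 0, while no gene is filled in the other 2 panels.

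Summed over a family, the Sprouty transcripts amounted to 259.6 ± 18.6 FPKM in Control and 38.7 ± 4.47 in YAP2SA. SPRY4 made up a mean of 40.7% of the Sprouty sum in Control and 22.9% in YAP2SA, SPRY2 56.6% and 66.0%, and SPRY1 2.69% and 11.1%. The larger share of SPRY1 came with a lower level of SPRY1 itself. The Spred pair summed to 41.2 ± 1.90 FPKM in Control and 22.4 ± 0.910 in YAP2SA, and the PEA3 pair to 179.6 ± 9.55 and 122 ± 2.60. The 3 phosphatases summed to 139 ± 18.6 FPKM in Control and 98.0 ± 9.84 in YAP2SA. Within that sum, DUSP5 made up 4.63 to 5.86% in Control and 19.1 to 24.8% in YAP2SA, and DUSP6 a mean of 56.2% and 33.9%. DUSP4 made up a mean of 38.6% in Control and 44.1% in YAP2SA, with libraries that overlapped. The mix of DUSP transcripts thus held a larger share of DUSP5 and a smaller share of DUSP6, although the family sum was lower. Without Control replicate 3, the Control means were 259.1 (Sprouty), 41.2 (Spred), 176 (PEA3) and 147 FPKM (DUSP). These sums are a description and were not tested.

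**Figure D3:**
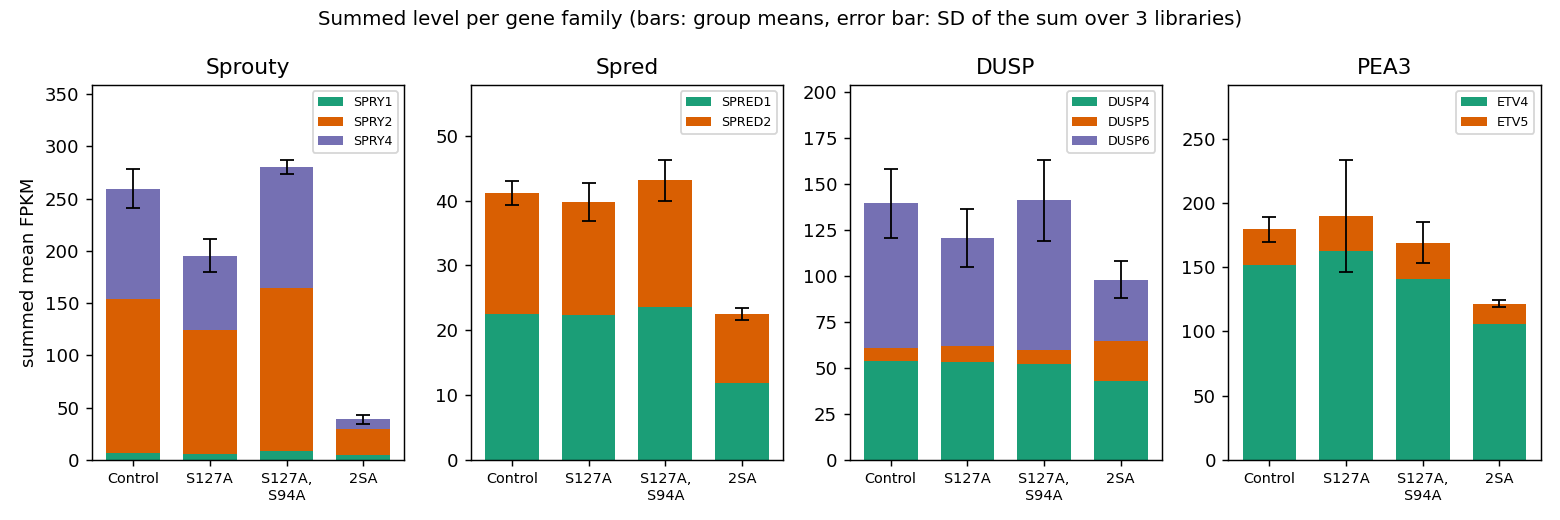
Summed mean FPKM of the Sprouty, Spred, DUSP and PEA3 genes in the 4 groups (bars stacked by gene from 0, error bar the SD of the sum over 3 libraries). The Sprouty bar is 259.6 FPKM in Control and 38.7 in YAP2SA, and the DUSP5 part of the DUSP bar is widest in YAP2SA.

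YAPS127A asked the same question with only the S127A substitution in the added YAP. None of the 10 genes was called by limma in YAPS127A against Control, where 1.75% of all loci were called lower and 4.56% higher. At an unadjusted p under 0.05, 3 of the 10 genes were lower and 0 higher, beside 8.48% and 11.1% of all loci. The 3 were SPRY4, SPRY2 and DUSP6. SPRY4 was at 54.6, 81.5 and 77.8 FPKM in YAPS127A, each below the lowest Control library of 91.3. Its log2 fold change was -0.58 (interval -0.93 to -0.23, adjusted p = 0.0568). SPRY2 was at 118, 121 and 118 FPKM, below the lowest Control library of 142, with a log2 fold change of -0.30 (interval -0.50 to -0.10, adjusted p = 0.0808). DUSP6 was at 55.4, 69.7 and 51.0 FPKM, which overlapped Control, with a log2 fold change of -0.41 (interval -0.77 to -0.06, adjusted p = 0.183). SPRY4 and SPRY2 were the 2 genes of 10 whose libraries did not overlap and were lower, as 9.74% of all loci were, and 0 were higher without overlap, as 11.6% were.

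The other 7 genes had an unadjusted p above 0.05 in YAPS127A. SPRY1 (5.31, 4.94 and 5.06 FPKM) had a log2 fold change of -0.35 with an interval of -0.81 to 0.10. DUSP5 (7.47, 9.80 and 8.20 FPKM) had one of 0.21 with an interval of -0.26 to 0.68, so a rise of the size seen in YAP2SA lies outside it. SPRED1, SPRED2, DUSP4, ETV4 and ETV5 had log2 fold changes between -0.10 and 0.07. ETV4 spread widely between the YAPS127A libraries, at 130, 144 and 215 FPKM. Without Control replicate 3 the adjusted p was 0.15 for SPRY4, 0.127 for SPRY2 and 0.107 for DUSP6, and SPRY4 passed the threshold under median-ratio scaling (0.0368), under quantile normalization (0.0356) and without Control replicate 1 (0.0471) or YAPS127A replicate 2 (0.0446), as did SPRY2 without YAP2SA replicate 2 (0.0406). The median log2 fold change was -0.05 over the 10 genes. It was 0.00 over all loci.

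YAPS127A,S94A carried the same YAP without the serine needed to bind TEAD. No gene of the 10 was called in YAPS127A,S94A against Control by limma, none reached an unadjusted p under 0.05, and all 10 overlapped Control, where 3.98% of all loci were lower and 4.7% higher without overlap. Over all loci, 0.093% were called lower and 0.0864% higher, and 1.97% and 2.42% had an unadjusted p under 0.05. SPRY4 was at 99.7, 126 and 122 FPKM, with a log2 fold change of 0.13 and an interval of -0.22 to 0.47. SPRY2 was at 171, 155 and 143 FPKM (0.09, interval -0.11 to 0.28). DUSP6 was at 77.4, 94.8 and 71.0 FPKM and DUSP5 at 6.02, 9.96 and 8.27. Without Control replicate 3 none was called either, with log2 fold changes from -0.083 for DUSP6 to 0.36 for SPRY1, and DUSP6 and DUSP5 (-0.00517) changed sign. The intervals of SPRY4, SPRY2 and DUSP6 with all libraries exclude a fall of the size measured in YAP2SA. The log2 fold changes of the 10 genes ran from -0.11 for ETV4 (interval -0.48 to 0.25) to 0.21 for SPRY1 (interval -0.25 to 0.67), with a median of 0.06 beside 0.01 over all loci. As a share of the Control mean, SPRY4 stood at 109% here, at 67.3% in YAPS127A and at 8.36% in YAP2SA. SPRY2 stood at 106%, 81.0% and 17.4% in that order, DUSP6 at 103%, 74.7% and 42.3%, and DUSP5 at 111%, 117% and 298%. The 3 comparisons share the Control libraries, so their values are set side by side only.

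Comparing the mutants with each other leaves the Control libraries out of the difference, though they still enter the shared spread. In YAP2SA against YAPS127A, 7 of the 10 genes were lower and 1 higher, where 14.5% and 18.3% of all loci were called. SPRY4 was 8.05-fold lower (log2 fold change -2.86, interval -3.20 to -2.51, adjusted p = 2.77e-07) and SPRY2 4.66-fold lower (-2.18, interval -2.38 to -1.99, adjusted p = 3.35e-08). DUSP6 was 1.77-fold lower (-0.80, adjusted p = 0.00334), and DUSP5 was 2.55-fold higher (1.24, adjusted p = 0.00118). SPRY4, SPRY2, DUSP6 and DUSP5 thus differed between 2 lines whose added YAP can bind TEAD. The YAP form and the transduced line cannot be told apart here. With a ratio over 2 also required, SPRY4 and SPRY2 were lower and DUSP5 higher, beside 5.94% and 5.17% of all loci. Libraries did not overlap for 8 genes lower and 1 higher, beside 19.4% and 24.1%. SPRED1 (-0.87, adjusted p = 6.75e-05), SPRED2 (-0.65, adjusted p = 0.000207), ETV5 (-0.73, adjusted p = 0.000467) and ETV4 (-0.58, adjusted p = 0.02) were lower too. The call for ETV4 was lost without YAP2SA replicate 1 (0.055) or replicate 3 (0.054), and in a fit of those 6 libraries alone (0.062). SPRY1 (-0.21, interval -0.67 to 0.25) overlapped between the groups and was not called, nor was DUSP4 (-0.30, adjusted p = 0.0953), which passed under quantile normalization (0.0388) and without YAPS127A replicate 1 (0.0404) or YAPS127A,S94A replicate 2 (0.0486).

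The YAP forms of YAPS127A and YAPS127A,S94A differ by the TEAD-binding serine. The transduced lines that carry them differ as well, and the serine and the line cannot be told apart here. SPRY4 and SPRY2 were lower in YAPS127A and none was higher, where 4.31% and 6.36% of all loci were called. SPRY4 differed by -0.71 on the log2 scale (interval -1.05 to -0.36, adjusted p = 0.0164, 1.62-fold lower). SPRY2 differed by -0.39 (interval -0.58 to -0.19, adjusted p = 0.0195, 1.31-fold lower). Both calls rest on narrow margins. For SPRY4 the call was lost without YAPS127A,S94A replicate 2 (0.0588) or 3 (0.0658), and in the fit of those 6 libraries alone (0.0685). For SPRY2 it was lost without YAPS127A replicate 1 (0.0581) or 3 (0.0537) or YAPS127A,S94A replicate 1 (0.0773) or 2 (0.0533). DUSP6 (-0.46, adjusted p = 0.0993) and SPRY1 (-0.56, adjusted p = 0.117) were not called, although their libraries did not overlap either, which makes 4 of the 10 genes lower and 0 higher without overlap, beside 14.2% and 15.2% of all loci. No gene also had a ratio over 2, which 0.95% of loci did in the lower and 2.54% in the higher direction. Leaving out YAPS127A,S94A replicate 2 brought SPRY1 to 0.0401, and leaving out YAPS127A replicate 3 brought SPRED2 to 0.03. The log2 differences of the remaining genes were between -0.16 (SPRED2) and 0.18 (ETV4), with overlap.

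YAP2SA against YAPS127A,S94A gave 7 genes lower and 1 higher, where 20.3% and 23.2% of all loci were called. With a ratio over 2 also required the counts were 4 and 1, beside 8.1% and 7.81%, and 8 genes lower and 1 higher had no overlap, beside 26.4% and 29.7%. SPRY4 was 13.1-fold lower (-3.56, adjusted p = 2.18e-08), SPRY2 6.11-fold lower (-2.57, adjusted p = 3.77e-09) and DUSP6 2.44-fold lower (-1.26, adjusted p = 9.15e-05). DUSP5 was 2.68-fold higher (1.32, adjusted p = 0.000488). SPRED1 (-0.94, adjusted p = 2.07e-05, 2.00-fold), SPRED2 (-0.82, adjusted p = 2.28e-05), ETV5 (-0.76, adjusted p = 0.000201) and SPRY1 (-0.77, adjusted p = 0.0115) were also lower. ETV4 (-0.41, adjusted p = 0.0684) and DUSP4 (-0.25, adjusted p = 0.132) were not called. ETV4 passed under median-ratio scaling (0.0458), quantile normalization (0.0179) and a fit of the 6 libraries alone (0.0157), and DUSP4 under quantile normalization (0.0418). ETV4 also passed without YAPS127A replicate 1 (0.0465) or 3 (0.00761) or YAPS127A,S94A replicate 1 (0.0443), and DUSP4 without YAPS127A,S94A replicate 1 (0.0396).

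**Figure D4:**
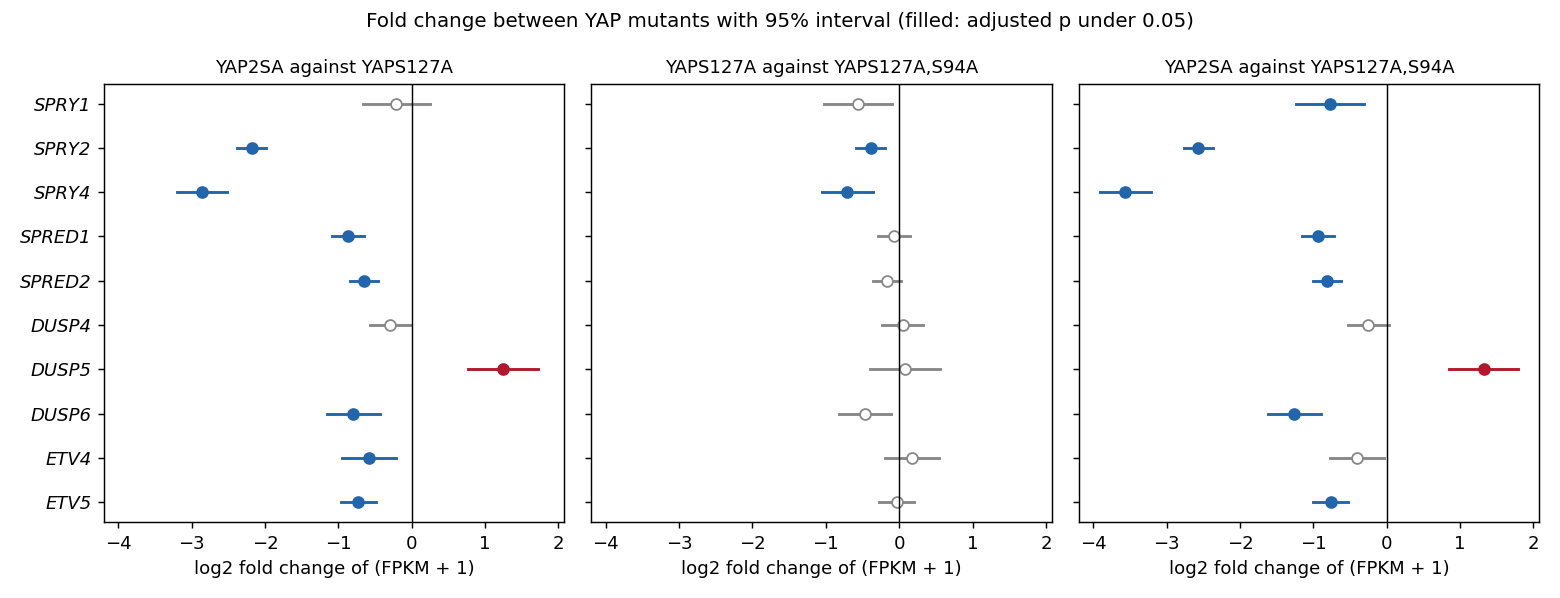
Log2 fold change of (FPKM + 1) with its 95% interval for the 10 genes between YAP mutants, filled where the adjusted p is under 0.05. Both panels with YAP2SA have 7 genes filled below 0 and DUSP5 filled above 0, and the panel of YAPS127A against YAPS127A,S94A has SPRY4 and SPRY2 filled.

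The rest of the pathway was read from 4 lists of genes, chosen with earlier results of these data known. Among 10 other genes of the same 4 families, 8 were tested in YAP2SA against Control, of which 2 rose, 2 fell and 4 were not called (median log2 fold change -0.22). These counts are near the 22.9% of all loci called higher and 19.5% lower, and say nothing particular of the families. DUSP10, a phosphatase of the JNK and p38 kinases, fell by 2.53 (14.2 ± 3.95 FPKM in Control and 1.58 ± 0.0152 in YAP2SA, adjusted p = 7.49e-07). ETV1, the remaining PEA3 factor, fell by 0.82 (13.7 to 7.30 FPKM, adjusted p = 4.46e-05), also in a row shared with another transcript. DUSP1 rose by 0.86 (8.60 to 16.5 FPKM, adjusted p = 0.00569), its row likewise shared with another transcript. DUSP1 is an early-induced nuclear phosphatase of several kinases. DUSP9 was the other gene that rose. DUSP8 and SPRY3 were below the filter.

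Other transcripts known to respond to ERK gave 10 lower, 3 higher and 3 not called of 16 tested, with a median of -1.07 beside 0.01 over all loci, of which 22.9% were higher and 19.5% lower. VGF, a secreted neuropeptide precursor, fell by 3.04 (153 ± 40.7 to 17.6 ± 4.69 FPKM, adjusted p = 9.37e-06). The immediate early transcription factor EGR1 fell by 2.64 (16.3 ± 2.83 to 1.76 ± 0.223 FPKM, adjusted p = 8.47e-07). EGR3, of the same family, averaged 3.56 FPKM in Control and 0.0495 in YAP2SA (log2 fold change -2.11, adjusted p = 3.63e-06). FOS, FOSB, JUNB, IER3, IL8, EPHA4 and PHLDA1 completed the lower set, and MYC, LIF and IER2 were not called. In YAP2SA, FOS (0.382 FPKM), FOSB (0.693), IL8 (0.822) and EGR3 averaged under 1 FPKM. They passed the filter only through libraries of the other groups. In comparisons with YAP2SA they could hardly be called other than lower, which limits the lower counts and the median of this list. The 3 that rose are named because they went the other way, a choice made after their values were seen. The AP-1 factor FOSL1 rose by 1.40 (129 to 339 FPKM, adjusted p = 8.47e-06), the receptor tyrosine kinase EPHA2 by 1.88 (48.7 to 182 FPKM, adjusted p = 1.55e-06) and CCND1, which encodes cyclin D, by 0.29 (123 to 150 FPKM, adjusted p = 0.0301). The paper counts FOSL1 among established target genes of YAP and the co-activator TAZ. The list thus held genes called in both directions, as the 10 genes did.

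Of 20 genes of the cascade itself, 3 were higher, 3 lower and 14 not called, with a median of 0.01. Neither direction exceeded the share of all loci called. MAP2K1, which encodes the ERK kinase MEK1, rose by 0.37 (36.8 to 47.8 FPKM, adjusted p = 0.000774), and RPS6KA3, a kinase that ERK activates, fell by 0.66 (33.7 to 21.0 FPKM, adjusted p = 2.64e-05), as did its relative RPS6KA1 by 0.40 (25.7 to 19.1 FPKM, adjusted p = 0.00157). Of 12 other negative regulators, 2 were higher and 2 lower, with a median of -0.07, again not above the share of all loci. ERRFI1, a feedback inhibitor of the EGF receptor, fell by 0.60 (97.8 to 63.9 FPKM, adjusted p = 0.00621), and IL17RD, an inhibitor of FGF signalling, rose by 0.49 (1.18 to 2.06 FPKM, adjusted p = 0.00245). RASA3, a RAS GTPase-activating protein gene, fell by 0.23 (21.7 to 18.4 FPKM, adjusted p = 0.0364). Without Control replicate 3, when 19.8% of all loci were called higher and 17.2% lower, the ERK-responsive list had 2 higher and 11 lower. CCND1 (adjusted p = 0.107) and RASA3 (0.0917) were no longer called, IER2 (0.0449) was called lower, and the other calls of the 4 lists stayed.

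In YAPS127A against Control, where 4.56% of all loci were called higher and 1.75% lower, the ERK-responsive list had 2 higher (EPHA2 and FOSL1) and 1 lower (EPHA4), and the other 3 lists had none called. Without Control replicate 3 (3.39% of all loci higher and 1.1% lower) it had 1 higher (EPHA2) and 1 lower (JUNB), and DUSP10 was called lower among the other family genes (adjusted p = 0.0186). YAPS127A,S94A against Control had none called in any list, with or without that library. YAPS127A against YAPS127A,S94A (6.36% of all loci higher and 4.31% lower) gave 2 higher and 5 lower in the ERK-responsive list, 1 lower among the other family genes, 1 higher and 2 lower among the negative regulators and none in the cascade. YAP2SA gave 2 higher and 8 lower ERK-responsive genes against YAPS127A (18.3% and 14.5% of all loci), and 3 and 11 against YAPS127A,S94A (23.2% and 20.3%).

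**Figure D5:**
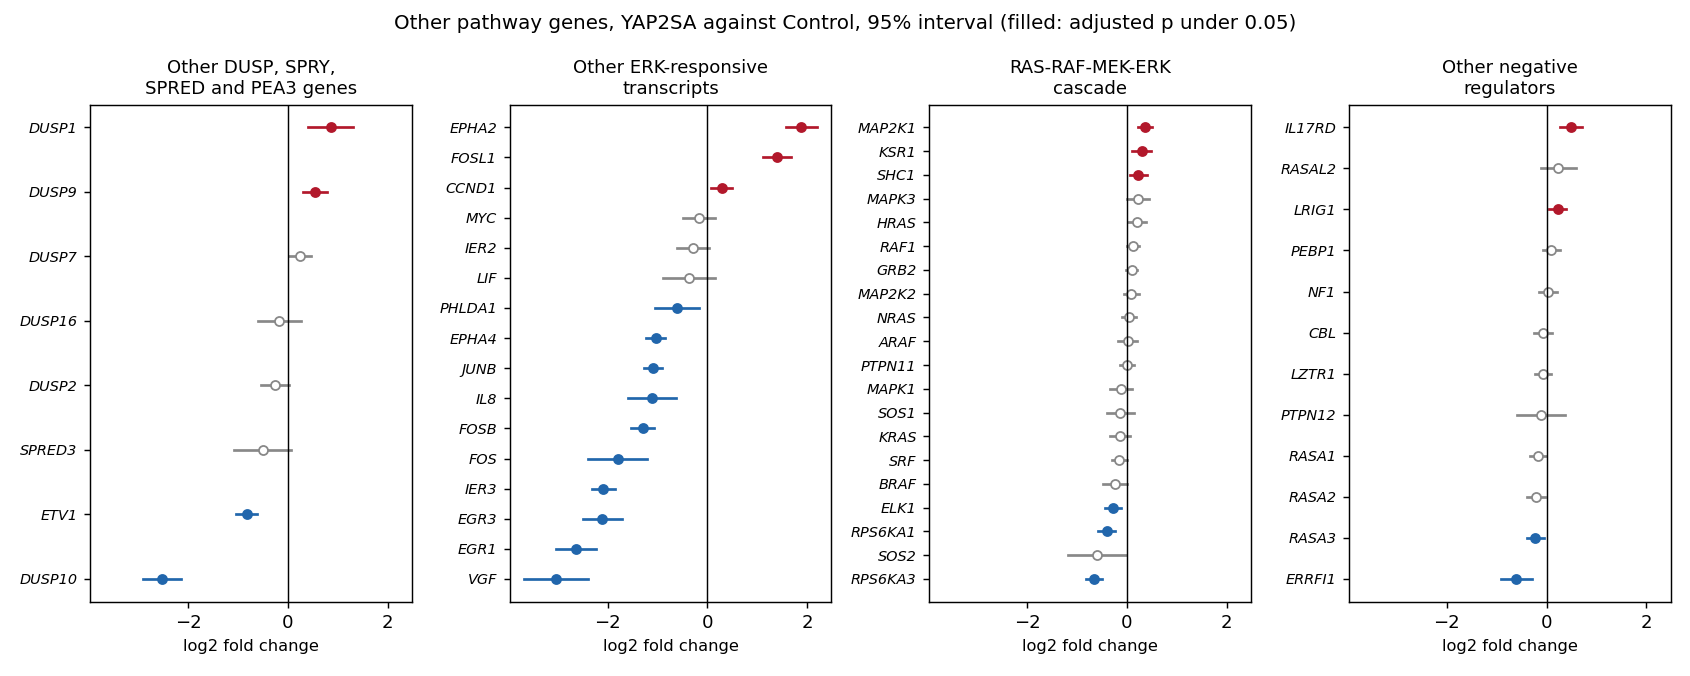
Log2 fold change of (FPKM + 1) in YAP2SA against Control, with its 95% interval, for the tested genes of the 4 other pathway lists (1 panel each, filled where the adjusted p is under 0.05). The ERK-responsive panel has 10 genes filled below 0 and 3 above, and 14 of the 20 cascade genes are not filled.

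The genes whose pattern over the 12 libraries was most like that of a member were found by Pearson's r of log2(FPKM + 1), which is a description over libraries that fall into groups. SPRY2 ran most closely with NPPC (r = 0.999), a natriuretic peptide gene with a mean of 11.6 FPKM in Control and 0.250 in YAP2SA, followed by CTNNBIP1 (0.997) and a row shared by HLA-DQA1 and HLA-DQA2 (0.997). SPRY4 ran with a row shared by C17orf57 and ITGB3 (0.997), HIVEP3 (0.997) and ACPL2 (0.997). SPRED1 ran with TRPM3 (0.99), C12orf34 (0.985) and LOC100499467 (0.983), DUSP6 with SGK1 (0.979), SDHC (0.979) and CDC42SE1 (0.974), and DUSP5 with IL11 (0.983), PCBD1 (0.978) and MAP2K1 (0.974). IL11, a cytokine gene, averaged 4.90 FPKM in Control and 10.8 in YAP2SA. For each, the mean in YAP2SA moved from Control in the direction of the member it was matched to. The choice by highest r made that nearly certain.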

How the data were processed

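Total RNA of A375 cells, from 3 platings of each of 4 groups, was sequenced by the authors. The sample records and the paper name bcl2fastq 2.15.0, Bowtie2 2.0.0, TopHat2 2.0.4 and Cufflinks 2.0.2, the hg19 build and UCSC known genes. The authors deposited 1 table of log2(FPKM + 1) values per locus and library. How multiply aligned reads and strand were handled is not given in the sources used here, and read counts were not used here. Depth is therefore unknown, and precision rests on the spread of 3 libraries.

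From the deposited table, 3 identical rows of 31588 were removed and FPKM was recovered as the power of 2 less the pseudocount of 1. Columns were assigned by their names. A gene was found by its symbol after splitting at commas. The 15055 loci that reached 1 FPKM in 3 or more libraries were tested on log2(FPKM + 1) with limma 3.58.1 in R 4.3.3. The 12 libraries were fitted together with group means and a variance trend on intensity, for 6 comparisons, two-sided, with Benjamini-Hochberg adjustment within each. An exact permutation test of 3 against 3 cannot go below p = 0.1 and was not used. The 10 genes, the 4 pathway lists and the marker lists were chosen with earlier results of these data known. All 10 genes are named. From each other list, the 3 called genes with the largest log2 changes in YAP2SA against Control were named with values, and genes of like pattern were sought for the 5 genes with an adjusted p under 0.05 and a ratio over 2 in any comparison. Positions come from GENCODE on GRCh37 and promoters from RefSeq on GRCh38.p14. Alternatives were no filter, a filter on higher values, other scalings, another pseudocount, no intensity trend, a replicate block, the 6 libraries of a comparison alone, stricter call rules and each library left out. Leaving Control replicate 3 out of the list counts was added after its YAP1 level was seen. The fit was tested on simulated data. Figures used Python 3.11.15, pandas 2.3.3 and matplotlib 3.10.9.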

Additional observations from a re-analysis of the deposited data

How the results depend on the processing

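In the 3 comparisons with YAP2SA, the calls and directions of SPRY2, SPRY4, SPRED1, SPRED2, DUSP5, DUSP6 and ETV5 held under all alternatives run with the same threshold. Of 1200 single-gene values under alternatives, 1114 kept direction and side of the threshold, 29 lost the call, 30 gained one and 27 changed sign. With a ratio over 2 also required, the lower calls were 3 in YAP2SA against Control, 2 against YAPS127A and 4 against YAPS127A,S94A (as reported 8, 7 and 7), and 0 in YAPS127A against YAPS127A,S94A, which also gave 0 at an adjusted p under 0.01 and 1 with its 6 libraries alone (as reported 2). In YAPS127A against Control (as reported 0 lower), median-ratio scaling and quantile scaling each gave 1. Leaving out 1 library at a time gave 0 to 1 lower there, 1 to 2 in YAPS127A against YAPS127A,S94A, 6 to 9 in YAP2SA against Control, 6 to 8 against YAPS127A and 7 to 9 against YAPS127A,S94A. The share of all loci called also moves with the setting. For lower calls in YAP2SA against Control it was 19.5% as reported and 17.2% without Control replicate 3. These counts therefore describe only how stable the calls were. The cause was not tested.

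The replicate block gave 2 lower in YAPS127A against Control (SPRY4 at 0.0173 and DUSP6 at 0.00185). It also called DUSP6 in YAPS127A against YAPS127A,S94A (0.000802), ETV4 in YAP2SA against YAPS127A,S94A (0.0326) and DUSP4 in YAP2SA against Control (0.00941), YAPS127A (0.0142) and YAPS127A,S94A (0.0229), all lower, and changed no other call of the 10 genes. The numbers are in the labels only as replicate numbers. Over all loci tested, 2 of 18 same-numbered pairs correlated above 0.1 in their deviations (-0.149 to 0.163), so they were not taken as pairs. For DUSP4, DUSP5, DUSP6 and SPRY4, however, replicate 2 was the highest library in all 4 groups, as 4.6% of loci were.

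The 27 sign changes all came from leaving out 1 library, in 14 results with no call as reported. In YAPS127A against Control the log2 fold change ranged from -0.0875 to 0.0930 for DUSP4, -0.15 to 0.21 for ETV4, -0.13 to 0.11 for ETV5 and -0.0825 to 0.0752 for SPRED1. In YAPS127A,S94A against Control it ranged from -0.19 to 0.0570 for DUSP4, -0.0140 to 0.31 for DUSP5, -0.0830 to 0.17 for DUSP6, -0.0938 to 0.14 for ETV5 and -0.0165 to 0.15 for SPRED1. In YAPS127A against YAPS127A,S94A it ranged from -0.0657 to 0.18 for DUSP4, -0.0937 to 0.23 for DUSP5, -0.0398 to 0.32 for ETV4, -0.0868 to 0.0243 for ETV5 and -0.15 to 0.00717 for SPRED1. The sum of several rows per gene was not run, since 0 members have several rows.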

Other observations

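In all 4 groups, replicate 2 was the highest library for 4 of the 10 genes (DUSP4, DUSP5, DUSP6 and SPRY4), a pattern noticed after the values were seen. The same held for 692 of the 15055 loci tested (4.6%). No explanation was tested.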
